A study of Mus musculus with 10 samples.

Results

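Platelets are small cell fragments shed by megakaryocytes, and they carry messenger RNA from the cell that made them. Their disc shape is held by a coil of microtubules built with a beta-tubulin made in the platelet lineage, encoded by Tubb1. On activation, myosin pulls on actin filaments, the platelet changes shape, and small GTPases steer its granules to the membrane for release. The 9 genes followed here belong to this machinery or were listed with it: Tubb1, the actin and myosin genes Tpm1, Myl9, Mylk, Cnn3 and Cap2, the membrane and secretion genes Cavin2 and Rab27b, and the lipid enzyme gene Hacd1. They were taken by gene symbol from the annotation table of the array, and each gene was represented by the probe set whose mean over the 10 arrays was highest. Of the 9 genes, 8 matched a probe set, out of 17097 genes with a probe set, and all 8 lay above the filter that kept 10734 genes for testing. Tubb1 was not matched in the table used here and was not analysed. The 9 were proposed with the levels on these arrays already known, so their own levels and differences are given as a description, with no test.

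The RNA came from blood neutrophils of 10 male C57BL/6 mice (also given as C57BL/6J), aged 3 months and kept for 9 days of acclimatization, with no treatment. The neutrophils of 5 mice were profiled separately and are called mouse 1 to mouse 5. Blood of the other 5 mice was pooled and divided into 5 portions before isolation, called pool portion 1 to 5, which are technical replicates of 1 pool. Cells were drawn from heparin-treated blood with an antibody against Ly6G, a neutrophil surface protein, and magnetic columns, at a stated purity between 71.5% and 99.5% with no value per sample. The isolation selects neutrophils, so platelet RNA is not the intended material. The 5 pooled mice are not among the 5 individual mice, so that the mice and the pooling cannot be told apart in any difference between the groups. By its title the study asked how much gene expression varies between individuals.

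The values are log2 signals, on which a step of 1 is a doubling, and arrays give no counts, so that their number limits the precision. Arrays had median signals of 4.50 to 4.74. Mouse 5 stood apart: its 95th percentile was 7.46 against 8.72 to 9.25 on the other arrays, and its Pearson correlation across all probe sets with any other array was at most 0.80. The 8 arrays other than those of mice 4 and 5 correlated at 0.949 or more. The neutrophil markers S100a8 and S100a9 read 12.28 or more on every array, while Csf3r, the receptor for the growth factor of granulocytes, read 9.68 in mouse 5 and 11.42 to 12.55 elsewhere. Values that move with mouse 5 are therefore given without it as well where results turn on them.

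In the neutrophil preparations of the individual mice, 7 of the 8 genes read lower by 1.35 to 2.84 log2 units than in the pool, and the eighth, Cnn3, by 0.41. For 6 genes (Tpm1, Myl9, Mylk, Cavin2, Rab27b and Cap2) every mouse lay below every pool portion. Among all genes tested, 587 of 10734 (5.47%) showed that pattern, and 0.503% the opposite one. The median difference of the 8 genes was 2.38 log2 units in favour of the pool, against 0.095 over all genes tested. Without mouse 5, the groups of 7 genes did not overlap, Hacd1 being the one added, against 7.99% of all genes, and the median was 2.45. Without mice 4 and 5 the same 7 did not overlap, against 10.2% of all genes. When the arrays were quantile normalized again, 4 genes had separate groups. Because these levels led to the choice of the genes, nothing is read from these counts. In RNA from a mixed preparation, fewer cells or fragments of a type and less RNA in each cannot be told apart.

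**Figure D1:**
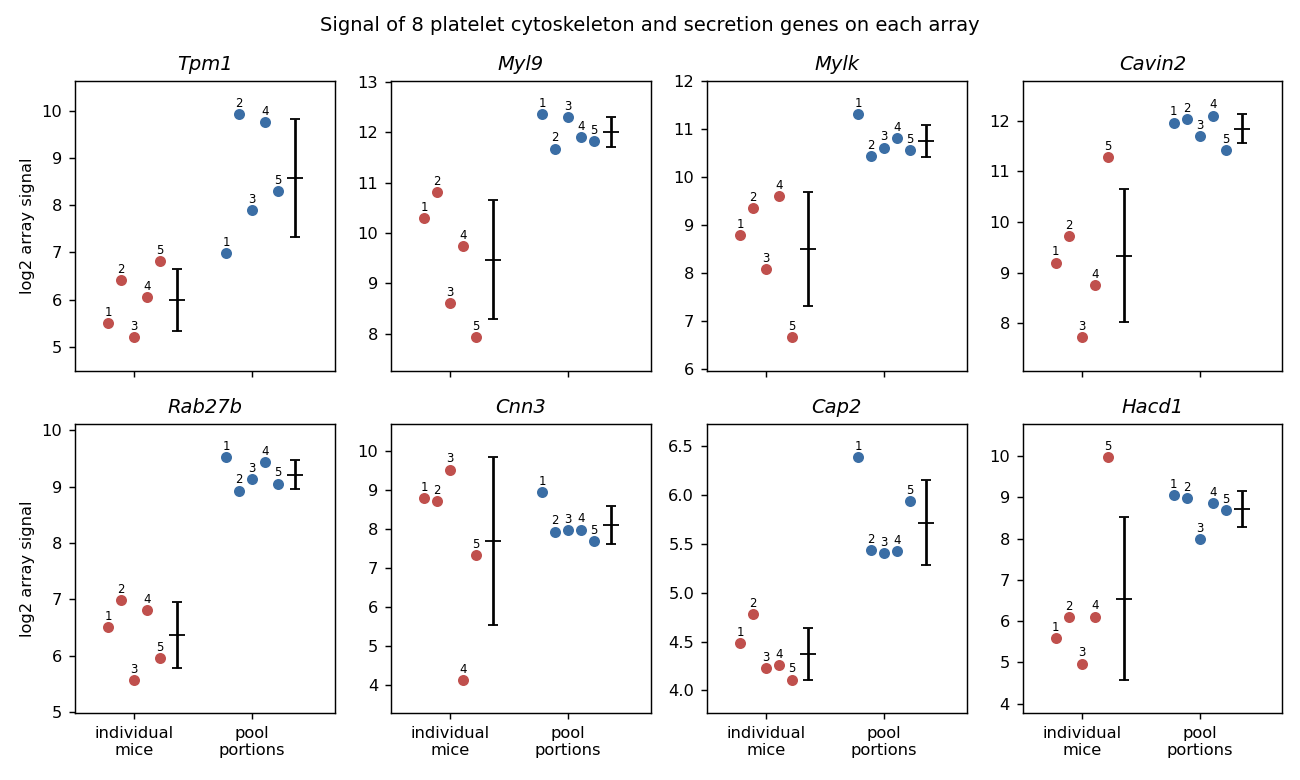
Log2 array signal of the 8 genes in the 5 individual mice (red) and the 5 pool portions (blue); digits give the replicate number, and the black bars show the mean with the SD of 5 arrays. The groups are separate for Tpm1, Myl9, Mylk, Cavin2, Rab27b and Cap2, mouse 5 lies above every pool portion for Hacd1, and Cnn3 spans 4.14 to 9.52 among the mice.

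The contractile genes came first in the order of roles. Myl9 encodes the regulatory light chain of myosin II, and Mylk encodes the kinase that phosphorylates that chain and so switches contraction on. The 250 bases before the transcription start that RefSeq lists for each gene (assembly GRCm38.p6) were read for 4 motifs on both strands, and the stretches of Myl9 and Mylk are shown because they alone among the 8 promoters at hand held any of them. The Myl9 stretch is 194 bases long and ends where the annotated gene begins (chr2:156775214-156775407, plus strand), with a CArG box, the motif of serum response factor, in capitals. The Mylk stretch is 250 bases long and lies inside the annotated gene, before an internal start (chr16:34784700-34784949, plus strand), with CCGGAA, a motif of ETS factors, and TGANTCA, shared by NF-E2 and AP-1, in capitals.
Myl9: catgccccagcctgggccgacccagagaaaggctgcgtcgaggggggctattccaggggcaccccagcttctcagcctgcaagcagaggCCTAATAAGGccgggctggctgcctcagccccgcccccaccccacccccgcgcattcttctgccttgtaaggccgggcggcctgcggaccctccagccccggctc
Mylk: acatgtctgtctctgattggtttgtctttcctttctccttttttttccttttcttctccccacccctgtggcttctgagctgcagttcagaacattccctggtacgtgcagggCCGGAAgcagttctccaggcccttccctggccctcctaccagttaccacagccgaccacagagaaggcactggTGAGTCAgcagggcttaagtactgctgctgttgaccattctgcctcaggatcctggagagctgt
The CArG box starts 161 bases before the listed start of Myl9, and 1.47% of 32851 promoters of this length held one. In Mylk the ETS motif starts 137 bases and the NF-E2 motif 64 bases before the start. Of all promoters, 3952 held CCGGAA and 2217 (6.75%) held TGANTCA. The fourth motif, AGATAA, of GATA factors, stood in 9.99% of all promoters and in none of the 8. The table holds 8 of the 9 genes, including Tubb1. The motifs do not overlap each other in these stretches, and a match of letters is only a description of the sequence.

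Myl9 (Entrez gene 98932) read 10.29, 10.81, 8.60, 9.73 and 7.93 in mice 1 to 5, against 12.35, 11.67, 12.30, 11.91 and 11.82 in pool portions 1 to 5. Every mouse was below every portion, with mouse 5 and then mouse 3 the lowest. The means were 9.47 ± 1.19 in the mice and 12.01 ± 0.30 in the pool (SD, n = 5 each), a 5.81-fold higher signal in the pool. Mylk (Entrez gene 107589) read 8.80, 9.36, 8.08, 9.60 and 6.66 in the mice, against 11.31, 10.44, 10.62, 10.82 and 10.57 in the pool. Mouse 5 was again lowest and mouse 4 highest, and 0.84 log2 units separated the highest mouse from the lowest portion. The pool was higher by 2.25 with mouse 5 and by 1.79 without it. For Myl9 the corresponding values were 2.54 and 2.15.

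Tpm1 (Entrez gene 22003) encodes a tropomyosin, a coiled rod that lies along actin filaments and controls the access of myosin. It read 5.50, 6.41, 5.21, 6.05 and 6.82 in mice 1 to 5, against 6.98, 9.92, 7.90, 9.76 and 8.29 in pool portions 1 to 5. All mice lay below all portions, by 0.17 at the closest, between mouse 5 and portion 1. Tpm1 was the member with the widest range in the pool, 2.94 log2 units, although these portions are the same blood, and its SD was larger in the pool (1.25) than among the mice (0.65). Portions 2 and 4 read at least 1.47 above the other portions. A margin of 1 or more of these portions over the others was found for 2 of 10734 genes, and Tpm1 was one of them.

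Cap2 (Entrez gene 67252) encodes a cyclase-associated protein that binds actin and helps to take filaments apart. It read 4.48, 4.78, 4.23, 4.26 and 4.11 in the mice, against 6.39, 5.44, 5.41, 5.43 and 5.94 in the pool. The signal in the individual mice was below 4.58, the level of the filter, except in mouse 2, so Cap2 passed the filter through the pool. Its difference of 1.35 log2 units was the smallest of the 6 genes with separate groups, and near the bottom of the signal range a difference in log2 signal can understate the change. Its mice differed little from each other (SD 0.27, n = 5).

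Among the membrane and secretion genes, Rab27b (Entrez gene 80718) encodes a small GTPase that directs platelet granules to the membrane. It read 6.52, 6.98, 5.57, 6.81 and 5.97 in mice 1 to 5, against 9.52, 8.93, 9.13, 9.43 and 9.05 in pool portions 1 to 5. The gap between the highest mouse and the lowest portion, 1.94 log2 units, was the widest of the 8 genes, and with all mice so was the difference of the means, 2.84 (7.17-fold). Without mouse 5 the difference was 2.74, below those of Hacd1, Cavin2 and Tpm1. The SD was 0.59 among the mice and 0.25 among the portions, n = 5 each.

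Cavin2 (Entrez gene 20324) encodes a coat protein of caveolae, the flask-shaped pits of the cell membrane, that binds phosphatidylserine. It read 9.20, 9.72, 7.73, 8.75 and 11.29 in the mice, against 11.96, 12.03, 11.70, 12.10 and 11.43 in the pool. Mouse 5 came within 0.14 of the lowest portion, whereas mice 1 to 4 stayed at 9.72 or lower. The pool was higher by 2.51 with mouse 5 and by 2.99 without it. Hacd1 (Entrez gene 30963) encodes a dehydratase of the cycle that elongates very long fatty acids and is itself no part of the cytoskeleton or of secretion. It read 5.59, 6.09, 4.97, 6.11 and 9.98 in the mice, against 9.06, 8.99, 7.99, 8.87 and 8.70 in the pool. Mouse 5 was above every portion and mice 1 to 4 were below every portion, so the difference of 2.17 became 3.03 without mouse 5.

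Mouse 5 thus lay on different sides of the other mice for different genes. Against the mean of mice 1 to 4 it was higher by 4.29 in Hacd1, 2.43 in Cavin2 and 1.02 in Tpm1, and its difference was -2.30 in Mylk, -1.93 in Myl9, -0.50 in Rab27b, -0.45 in Cnn3 and -0.33 in Cap2. It was the highest mouse in 3 and the lowest in 3 of the 8 genes. Over all genes tested it was the highest mouse in 3015 and the lowest in 4951 of 10734. Among 20 measured platelet markers it was the highest in 6 and the lowest in 6.

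Cnn3 (Entrez gene 71994) encodes a calponin, an actin-binding protein of many cell types, and its values did not follow those of the other 7 genes. It read 8.79, 8.71, 9.52, 4.14 and 7.34 in mice 1 to 5, against 8.95, 7.93, 7.97, 7.99 and 7.70 in pool portions 1 to 5. The groups overlapped, with mouse 3 above every portion and mouse 4 far below. The mean was 7.70 ± 2.14 in the mice and 8.11 ± 0.48 in the pool (SD, n = 5 each). Without mouse 4 the sign of the difference turned, and the mice were higher by 0.48. Without mice 4 and 5 together they were higher by 0.90. The level of Cnn3 ran with that of 7 measured B cell markers of 8 listed, where a list level is the mean over its genes of the signal minus the gene's own mean over the 10 arrays. That B cell level was 0.80, 0.81, 1.33, -2.23 and -1.64 in mice 1 to 5, against 0.77, -0.21, 0.30, 0.12 and -0.04 in the pool. Its Pearson correlation with Cnn3 was 0.91 over 10 arrays, 0.987 without mouse 5 and 0.959 over the 8 arrays left without mice 4 and 5, the arrays farthest from the median. For the second probe set of Cnn3 it was 0.584 over 10 arrays and 0.988 without mouse 5. Over all genes tested the median correlation with the B cell level was 0.413, and 5.68% of genes exceeded 0.9. The pool portions share their blood, so these correlations are descriptions. The part of B cell RNA in the Cnn3 signal was not tested. With the level of 20 platelet markers, Cnn3 correlated at 0.0533 over the same arrays, against 0.604 to 0.996 for the other 7 genes. The difference between mice and pool, known when the genes were chosen, enters these values, so nothing is read from them.

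**Figure D2:**
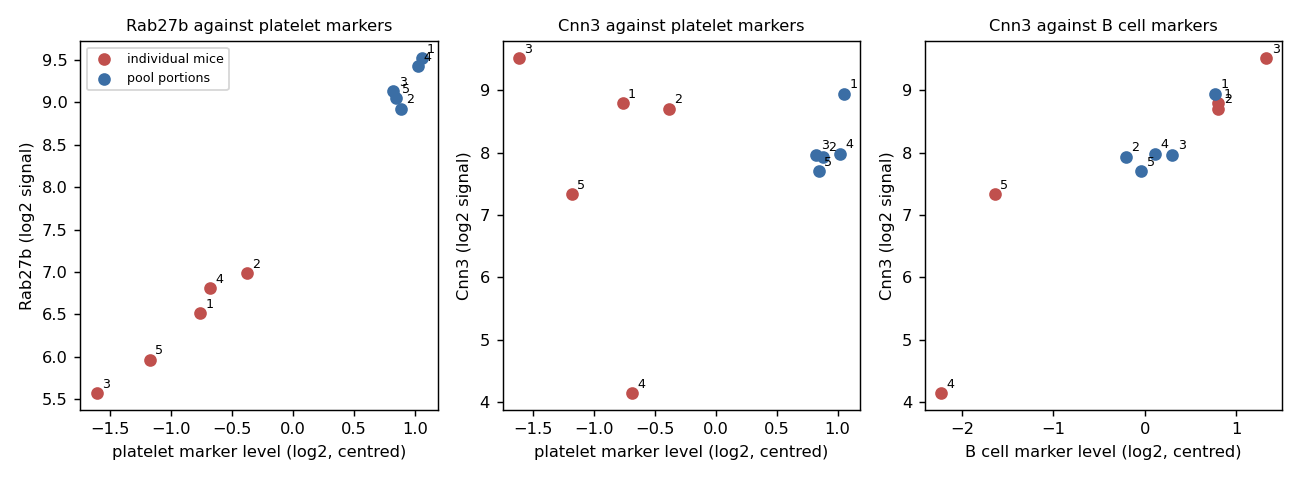
Log2 signal of Rab27b and Cnn3 on each array against the level of the platelet markers, and of Cnn3 against the level of the B cell markers; red points are individual mice, blue points pool portions, and digits give the replicate number. Rab27b follows the platelet markers across the mice, whereas Cnn3 lies along the B cell markers, with mouse 4 lowest in both.

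Several members are read by more than 1 probe set, which shows how far their values depend on the choice of probe. All 3 probe sets of Rab27b gave separate groups, with the pool higher by 2.84, 3.20 and 2.30 in the order of their mean, although mouse 5 was the lowest mouse in the second, at 3.75, and the highest in the third. The 3 probe sets of Cavin2 gave 2.51, 2.49 and 2.98, also with no overlap, and the 2 of lower mean put mouse 5 at 9.53 and 9.54 where the first had 11.29. The 3 probe sets of Mylk gave 2.25, 3.40 and 1.82, all with separate groups. The third of these had mouse 5 as its highest mouse, at 6.82, where the others had it lowest, and its pool portions 2 and 4 read 8.43 and 8.42 against 6.91 to 7.54. That pattern is the one of the Tpm1 probe set described above, and these probe sets of different genes correlated at 0.973 over the 10 arrays, against 0.673 for the first and second probe sets of Tpm1 itself. The second Tpm1 probe set gave 2.15 with separate groups, with mouse 5 lowest where the first had it highest, and in it portions 2 and 4 did not stand out (7.47 and 7.59 against 7.68 to 8.35). The third read 3.72 to 4.87 on every array and differed between the groups by 0.24 in the opposite direction. The second probe set of Cap2 gave 0.42 with overlapping groups, and the second of Cnn3 had a difference of -0.12, with 9.51 in mouse 5 and 3.73 in mouse 4. The probe sets of Cnn3 and Hacd1 and the third of Cavin2 carry the marks s or x in their names, for matching several transcripts. The probe set of the tubulin gene Tubb2a does too, so a share of signal from related transcripts is possible there. The first probe set of Tpm1 carries another mark, a, and was kept where probe sets marked s or x were left out.

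**Figure D3:**
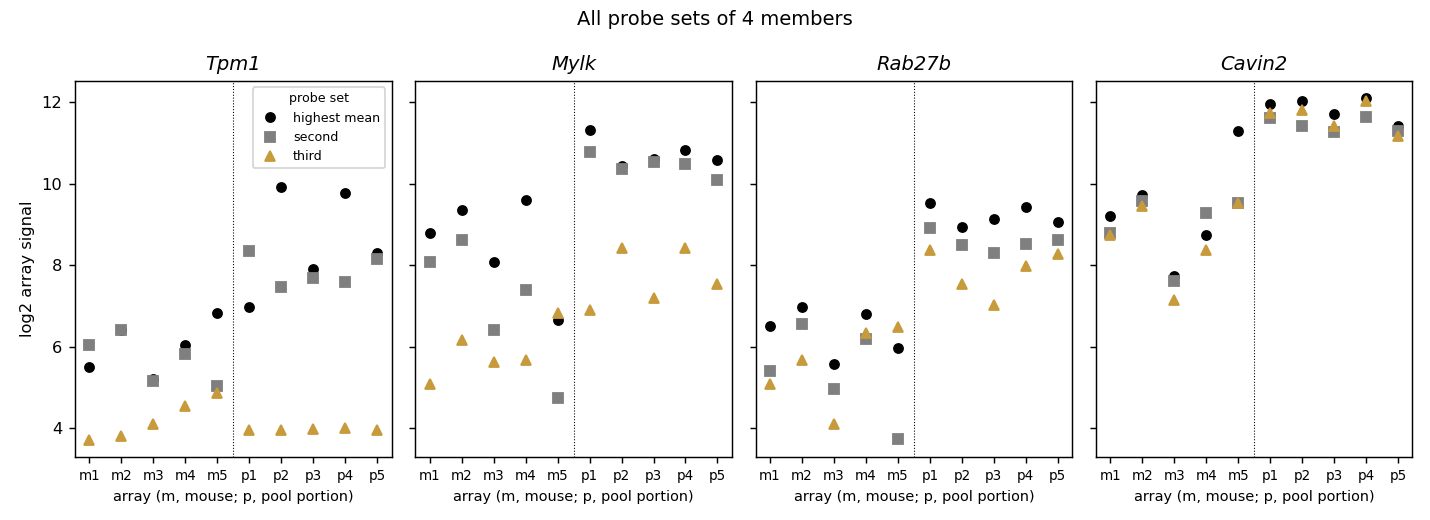
Log2 signal of every probe set of Tpm1, Mylk, Rab27b and Cavin2 on the 5 individual mice (m1 to m5) and the 5 pool portions (p1 to p5), ordered by mean signal. All probe sets of Mylk, Rab27b and Cavin2 separate the groups, mouse 5 takes different places among the mice in different probe sets, and the first of Tpm1 and the third of Mylk are high in pool portions 2 and 4.

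These genes belong to families with other genes, and most of those relatives were measured on the same arrays. Of 25 listed relatives, 22 had a probe set and 16 were tested. In limma 0 of the 16 passed at an adjusted p of 0.05 in either direction, 2 had an unadjusted p under 0.05, both lower in the mice, and the ordinary two-group fit called 0. The same limma fit called 0 of all 10734 genes (0%) in either direction, with 522 lower and 38 higher in the mice at an unadjusted p under 0.05. The ordinary fit called 285 lower (2.66%) and 3 higher (0.0279%) in the mice. That fit, also made in limma, counts the technical portions of 1 pool as replicates, so its p-values can be too small. Without mouse 5 limma with the error of the mice called 153 lower (1.43%) and 2 higher (0.0186%), 2 relatives among the former. The median relative was higher in the pool by 0.48, and by 0.21 without mouse 5.

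Myl12a, a regulatory light chain of nonmuscle myosin and relative of Myl9, was higher in the pool by 0.28 (SE 0.40), against 2.54 for Myl9. Rab27a, the GTPase of cytotoxic and neutrophil granules, gave 7.96 to 8.50 for mice 1 to 4, 4.22 for mouse 5 and 7.58 to 8.58 for the pool. Its difference was 0.76 with mouse 5 and -0.06 without it, where Rab27b gave 2.74. Cap1, the widespread relative of Cap2, gave 0.68 and -0.12, Mylk2 gave 0.12 and 0.23, and Cavin1 gave -0.34 and 0.03. Mylk2 and Cavin1 had signals close to the filter level of 4.58. Their pool means were 4.97 and 4.50, against 10.75 for Mylk and 11.84 for Cavin2. The highest single value of Cavin1, 6.32, came from mouse 5. So near the bottom of the signal range a change can be understated, and these differences do not show whether either relative was unchanged. Cnn2, the calponin of leukocytes, gave 0.85 and 0.47, more than Cnn3 in both cases. Hacd2 gave 0.13 and -0.74, while Hacd4 gave 1.60 (SE 0.66, limma adjusted p = 0.906) and 1.08. Differences between a gene and its relative were not tested.

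Some relatives read like the members. Tubb2a, a beta-tubulin, gave 9.39 to 9.85 for mice 1 to 4, 12.14 for mouse 5 and 11.50 to 12.17 for the pool. Its difference was 1.74 (SE 0.65, limma adjusted p = 0.753) and 2.24 without mouse 5 (SE 0.18, adjusted p = 0.038). The other tested tubulins Tubb4a, Tubb4b, Tubb5 and Tubb6 gave -0.27, 1.31, 0.21 and 0.17, and 0.02, 0.51, -0.04 and -0.02 without mouse 5. Tpm2, a tropomyosin of muscle and other cells, gave 6.12 to 8.49 for mice 1 to 4, 11.91 for mouse 5 and 9.95 to 11.17 for the pool. Like Hacd1, it was highest in mouse 5 among the mice, and its difference of 2.16 became 3.01 without that array, above the 2.78 of Tpm1. Tpm4 gave 0.79 and 0.91, the latter with an adjusted p of 0.0479 in limma, and Tpm3 gave 0.09 and 0.19. With all mice, 7 of the 8 members differed more than each tested relative of their family, Cnn3 being the exception, and 6 did without mouse 5. The members were chosen with their levels known, so nothing is read from this count.

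**Figure D4:**
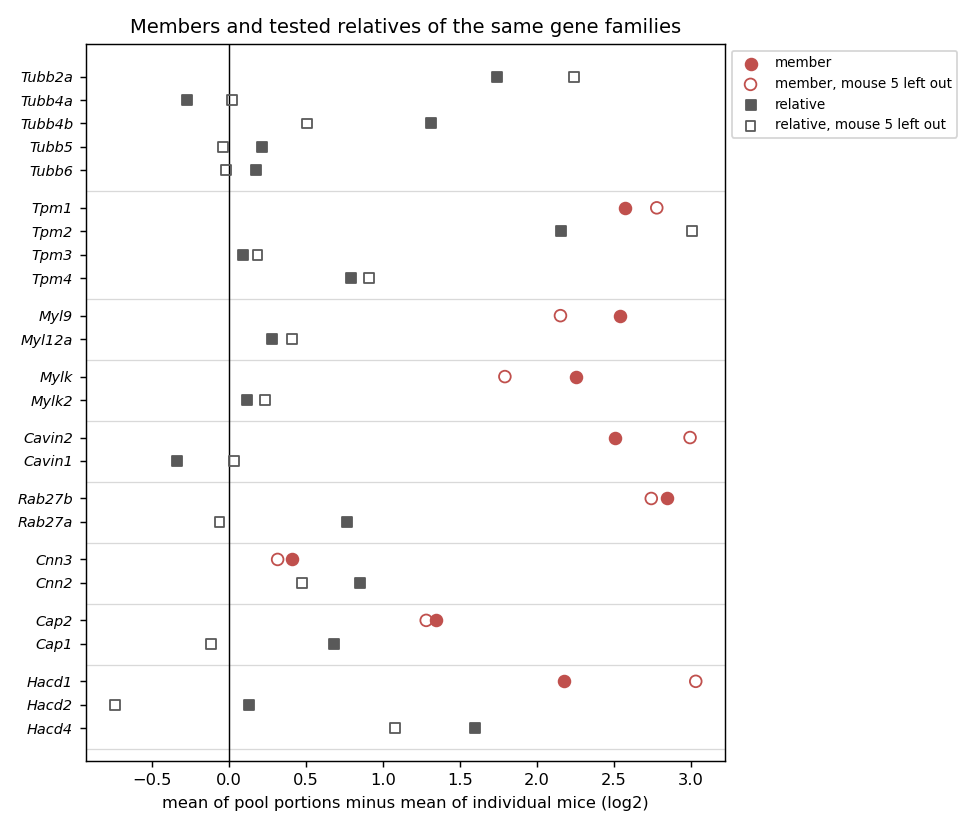
Mean of the pool portions minus mean of the individual mice, in log2 units, for the 8 members (red circles) and 16 tested relatives (grey squares), grouped by family from tubulins at the top; open symbols leave out mouse 5. With all mice (filled symbols) the members lie at 1.35 or more except Cnn3 at 0.41, and Tubb2a, Tpm2 and Hacd4 lie farthest to the right among the relatives. Without mouse 5, Cap2 lies at 1.28 and Cnn3 at 0.32.

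Other genes of the platelet cytoskeleton and of platelet secretion, most of which neutrophils also use, were read from lists that exclude the 9 members. These lists were chosen with earlier results of these data known, so nothing is read from their counts of separate groups. Of 25 tested cytoskeleton genes (28 listed), limma called 0 in either direction. All 7 genes with an unadjusted p under 0.05 were lower in the mice, and 9 had every mouse below every portion, a share to be set against 5.47% of all genes. The list median was 1.09 higher in the pool, and 0.58 without mouse 5, whose list level was -2.01 against -0.30 to -0.10 in mice 1 to 4. The smallest p belonged to Tuba8, an alpha-tubulin, higher in the pool by 1.25 (SE 0.28, adjusted p = 0.239), and to Pdlim1, a scaffold protein on actin fibres, higher by 1.97 (SE 0.54, adjusted p = 0.383). In the ordinary two-group fit, which also uses the spread of the pool portions, 4 genes were called, all higher in the pool: Tuba8, Pdlim1, Parvb and Vcl. Without mouse 5 the error of the mice alone called Pdlim1 and Vcl, which encodes vinculin, a link between integrins and actin.

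Of 24 tested secretion genes (28 listed), limma called 0, and 1 had an unadjusted p under 0.05. Every mouse lay below every portion for 2 of them, against 5.47% of all genes. The list median, pool minus mice, was 0.34 with mouse 5 and -0.04 without it, so its direction rests on that array. The gene with the smallest p was Sytl4, a protein that binds Rab27 GTPases on granules, higher in the pool by 2.25 (SE 0.60, adjusted p = 0.369). It read 6.91 to 8.92 in the mice and 9.83 to 10.47 in the pool. Sytl4 was the 1 gene of the list called by the ordinary fit (adjusted p = 0.0182), which counts the pool portions as replicates. Unc13d, which primes granules for fusion in many blood cells, came next with 1.35 (SE 0.75, adjusted p = 0.999), or 0.78 without mouse 5, and the differences of the whole list ran from -0.35 to 2.25.

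Defining platelet genes read lower in the mice, as the members did. Of 24 listed markers, 20 had a probe set and 19 were tested. Every mouse lay below every pool portion for 18 of the tested markers, against 5.47% of all genes. The markers were chosen with earlier results of these data known, so nothing is read from this count. Their list level was -1.61 to -0.38 in the mice and 0.82 to 1.05 in the pool, and the median difference of the tested markers was 2.01, or 1.74 without mouse 5. In limma 0 of 19 passed in either direction, with 18 at an unadjusted p under 0.05, all lower in the mice, and the ordinary fit called 16. Pf4, the chemokine of alpha granules, read 11.54 to 12.28 in the mice and 13.01 to 13.35 in the pool, a difference of 1.32 (SE 0.32, adjusted p = 0.285). Ppbp, another platelet chemokine, differed by 1.06 (SE 0.33, adjusted p = 0.529). The integrin chain gene Itga2b differed by 1.92 (SE 0.50, adjusted p = 0.356), and Gp9, of the receptor for von Willebrand factor, by 2.71 (SE 0.68, adjusted p = 0.315). The smallest p in the list was that of F2rl2, a receptor cut by thrombin (1.41, SE 0.27, adjusted p = 0.20), followed by Nrgn, a calmodulin-binding protein (2.23, SE 0.43, adjusted p = 0.20). Both adjusted values are from limma with the error of the individual mice. The part of platelet number or platelet RNA in the levels of the members was not tested.

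Within each group, the correlation of the members with the platelet level differed from gene to gene. Rab27b correlated with it at 0.987 over the 5 mice and 0.879 over the 5 portions, Myl9 at 0.838 and 0.26, Mylk at 0.679 and 0.835, and Cap2 at 0.741 and 0.46. The values over the mice were lower for Tpm1 (0.394, and -0.104 over the portions), Cavin2 (0.262 and 0.676), Hacd1 (-0.0773 and 0.676) and Cnn3 (-0.318 and 0.732). These values are descriptions over few arrays. Mouse 3 had the lowest platelet level (-1.61), and it was the lowest of the 5 mice in Tpm1, Cavin2, Rab27b and Hacd1.

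Lists of other cell types were set beside the members because Tpm1, Myl9, Mylk, Cnn3 and Cavin2 are also expressed by smooth muscle or endothelium. The level of 5 measured smooth muscle markers was -0.24 to 0.33 in the mice and -0.03 to 0.01 in the pool, and that of 7 endothelial markers -0.20 to 0.24 and 0.00 to 0.16. Neutrophil markers (8 of 10 measured) had levels of 0.15 to 0.55 in mice 1 to 4, -2.69 in mouse 5 and -0.17 to 0.65 in the pool. For T cells (6 of 8 measured) the levels were -0.14 to 0.28 in the mice and -0.03 to 0.09 in the pool, for monocytes (8 of 8) -1.09 to 0.56 and -0.13 to 0.68, and for red cells (4 of 9) -1.18 to 0.71 and -0.39 to 0.99. With all mice the ranges of the mice and of the pool overlapped in each of these lists. For the T cell and endothelial lists that overlap came from mouse 5 alone: mice 1 to 4 lay at -0.14 to -0.10 and at -0.20 to -0.08, below every portion. The level of the members was -1.59 to -0.47 in the mice and 0.80 to 1.24 in the pool, without overlap. Separate groups were not particular to the members and the platelet markers. The level of 22 relatives was -0.59 to -0.05 in the mice and 0.10 to 0.32 in the pool. For 25 cytoskeleton genes outside the members the ranges were -2.01 to -0.10 and 0.27 to 0.76.

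**Figure D5:**
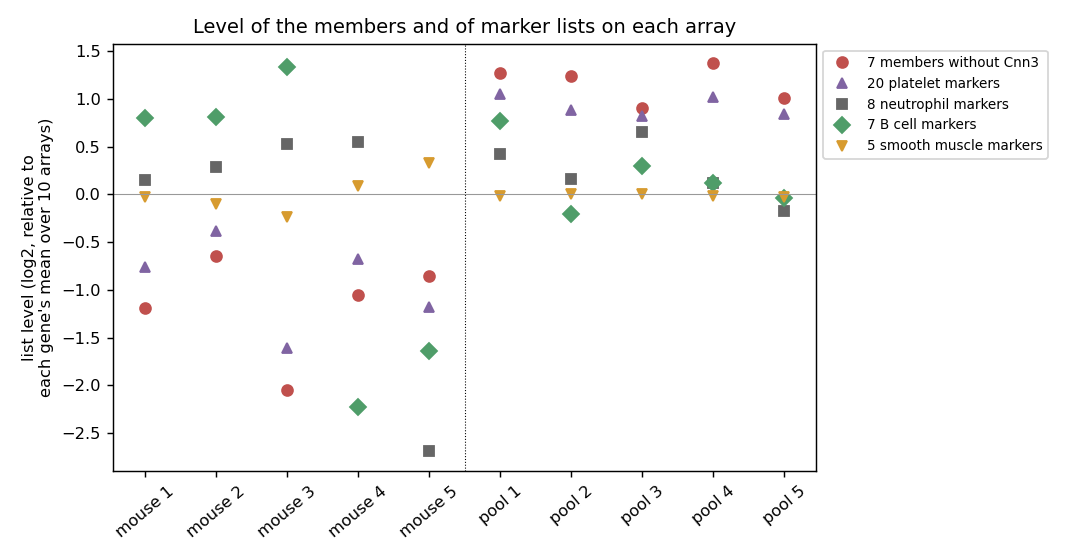
Level of 7 members without Cnn3, of platelet, neutrophil and B cell markers and of smooth muscle markers on each array, in log2 units relative to each gene's mean over the 10 arrays. The members and the platelet markers lie below 0 in every individual mouse and above 0 in every pool portion, and the other lists do not separate the groups. Of the 5 smooth muscle markers, 2 passed the filter, and the others read near the bottom of the signal range.

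The genes whose pattern over the 10 arrays was most like the mean of the members were Nomo1, Nbdy, Bcas3, Nrgn, Gpx4, Lat, Nlk and Gm10419. Their Pearson correlations with that mean ran from 0.984 to 0.993, against a median of 0.103 over 10726 other genes, of which 1.5% exceeded 0.9. Nbdy, a small protein bound to the RNA decapping complex, read 7.24 to 8.19 in the mice and 9.81 to 10.50 in the pool. Lat, an adaptor of T cell and platelet receptor signalling, read 5.77 to 7.02 and 8.24 to 8.70, and Gpx4, an enzyme that reduces lipid peroxides, read 10.50 to 11.22 and 11.89 to 12.43. In all 8 the pool was higher, by 1.30 to 2.50. That direction follows from the ranking, because the mean of the members was itself higher in every portion than in every mouse. This ranking depends on the arrays and probe sets used: 3 of the 8 genes were among the first 8 without mouse 5, and 0 of them with the probe set of median mean. Without mouse 4 the number was also 3, and without mouse 3 it was 5.

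The spread of the members between mice was larger than between the pool portions for most genes. The SD among the 5 mice ran from 0.27 for Cap2 to 2.14 for Cnn3, and among the portions from 0.25 for Rab27b to 1.25 for Tpm1. The medians were 1.19 and 0.39, against 0.57 and 0.23 over all genes tested. Without mouse 5 the median SD of the members between mice was 0.65, against 0.33 over all genes. Tpm1 and Cap2 were the members with a larger SD in the pool than among the mice.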

How the data were processed

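Messenger RNA was read on 10 arrays of neutrophil RNA, labelled after 2-cycle amplification. The authors deposited a log2 value for each probe set on each array, calculated with RMA per the submitters' processing notes; which version and settings were used is not given in the sources used here. Of 45141 probe sets, 104 controls, 551 with several gene symbols and 15588 without a symbol were set aside, and 28898 carried 1 symbol. The probe set with the highest mean stood for each of 17097 genes, and a gene was tested where its mean exceeded 4.58, the median over probe sets, as 10734 did. Genes were named through the array's annotation table. Of the probe sets with 1 symbol, 28689 matched the RefSeq gene table of GRCm38.p6 by gene ID, which changed 0 symbols. Promoters were taken from RefSeq, same assembly.

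Mean differences were tested in limma 3.58.1 (under R 4.3.3, reading files with the package data.table, version 1.17.8), two-sided, with an intensity trend, the error of the individual mice alone and the pool counted as an average of 5 mice, because the pool portions hold only technical spread. The Benjamini-Hochberg method was applied over all genes, with a threshold of 0.05. The fit was tried on simulated data that took the spread between mice from mice 1 to 4. It recovered 60.3% of changes of 1 log2 unit, 77.8% of 2 and 95% of 3, and called 18 unchanged genes. Because the spread of mouse 5 was left out, this does not show how the fit performs with that array. Plots used Python 3.11.15, matplotlib 3.10.9, numpy 2.4.6 and pandas 2.3.3. Members, gene lists, markers and alternatives were chosen with earlier results of these data known. Besides the members, the text names the 2 genes of smallest p in each list in which none passed, 7 defining markers and the 8 genes most like the members. The rule also asked for the relative closest in protein sequence. Protein sequences were not used here, so tested relatives of all families are given instead. Genes called under alternatives and the probe set patterns were named after their values were seen. Alternatives were other filters, normalizations, probe sets and fits, each array left out, and mice 4 and 5 left out together. An ordinary fit without mouse 5 was added after seeing the data. Columns of other series used: 0.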

Additional observations from a re-analysis of the deposited data

Results flagged for a closer look

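Of 88 groups of 5 arrays tested (44 named genes in each group), 15 held an array whose gap to the nearest other array was large for the range of its group. Chance alone gives such a gap in about 1 of 20 groups, which is 5%.

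Among the members, Hacd1 in mouse 5 read 9.98, against 4.97 to 6.11 in the other mice, and Cnn3 in pool portion 1 read 8.95, against 7.70 to 7.99 in the other portions. Among the relatives, mouse 5 was far above the other mice in Tubb2a (12.14 against 9.39 to 9.85) and Tpm4 (11.75 against 11.13 to 11.23). It was far below them in Hacd4 (8.47 against 10.78 to 11.31), Tubb4b (5.12 against 8.65 to 9.35), Rab27a (4.22 against 7.96 to 8.50) and Hacd2 (4.21 against 8.08 to 9.57), and in the neutrophil marker Csf3r (9.68 against 12.06 to 12.23). Pool portion 5 was the lowest portion by a wide gap in Tpm3 (11.25 against 11.82 to 11.90), Rab27a (7.58 against 8.33 to 8.58), Cnn2 (11.63 against 12.03 to 12.14), S100a8 (12.67 against 13.19 to 13.25) and S100a9 (12.28 against 12.68 to 12.80). Cap1 was high in pool portion 3 (10.15 against 9.09 to 9.40).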

How the results depend on the processing

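Of the alternative values of single members, 132 kept the sign and stayed within 1 SD of the value given, and 2 turned sign, both of Cnn3. The difference of Cnn3, mice minus pool, turned from -0.41 to 0.90 without mice 4 and 5, and ranged from -0.86 without mouse 3 to 0.48 without mouse 4 when 1 array was left out. The counts of calls depended on the error used and on mouse 5. The ordinary two-group fit called 285 genes higher in the pool and 3 higher in the mice, with 4 cytoskeleton genes, 1 secretion gene and 16 platelet markers among the former. The replicate block, a fit with the replicate number of the labels, called 188 genes higher in the pool, with 2, 1 and 13 of these lists. The shared numbers do not pair the arrays: same-numbered deviations correlated at 0.501, -0.259, 0.331, -0.195 and 0.441, and 1 of 5 mice correlated best with its own number. Without mice 4 and 5 the counts were 352 and 116, with 3 relatives, 3 cytoskeleton genes, 1 secretion gene and 5 platelet markers. The ordinary fit without mouse 5 gave 555 and 42, with 4, 10, 3 and 18. With 1 array left out, calls ranged from 0 to 153 higher in the pool and from 0 to 2 higher in the mice, those of relatives and of cytoskeleton genes from 0 to 2 and of platelet markers from 0 to 3; the highest counts were those without mouse 5. In the same way members with separate groups ranged from 6 to 7, the median difference from -2.54 to -2.13, and the excess of the median SD of the mice over that of the pool from 0.27 to 0.92. After repeated quantile normalization 4 members had separate groups instead of 6, and the median difference was -2.04. Of the 8 genes most like the members, 5 remained after quantile normalization, 1 without probe sets that can match several transcripts (which leaves out Cnn3 and Hacd1), 0 with the probe set of median mean, 0 without mice 4 and 5, and 3 to 8 with 1 array left out. Precision is limited by 5 arrays in each group and by signals near the bottom of the range, as in Cap2.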

Other observations

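Transcription factors of the megakaryocyte line were read from a list of 11 genes that plays no part in the comparisons above. This list too was chosen with earlier results of these data known, so nothing is read from its count of separate groups. Of the 10 tested, limma called 0 in either direction, and 4 had an unadjusted p under 0.05, all lower in the mice. Every mouse lay below every pool portion for 3 of them, against 5.47% of all genes. The ordinary fit called 2. The median of the list was 0.89 higher in the pool. Its level was -1.15 to -0.16 in the mice and 0.30 to 0.70 in the pool, without overlap. Tal1, a factor needed to form blood and megakaryocytes, read 5.60 to 7.40 in the mice and 8.90 to 9.44 in the pool, a difference of 2.55 (limma adjusted p = 0.245). Zfpm1, the partner protein of GATA factors, read 4.17 to 5.13 and 5.42 to 6.32, a difference of 1.18 (limma adjusted p = 0.239). Srf, which binds the CArG box, differed by -0.13 (pool minus mice), and Mrtfa, its coactivator, by 0.49, or -0.26 without mouse 5. Srf and Mrtfa were named after their values were seen.

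The other gene with pool portions 2 and 4 above the rest by 1 or more was Nucks1, a nuclear protein of DNA repair, at 11.81 and 11.73 against 10.49 to 10.69. It was also highest in mouse 5 among the mice (11.71). Below the rest by 1 or more in these portions were 2 genes.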
